A study of Mus musculus with 30 samples.

Results

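The extensor digitorum longus (EDL) muscle of EAE mice was compared with that of OVA-immunized mice on day 40, in the chronic remission phase. Of the 30 mice measured by RNA-Seq, these were 10: the 5 labelled EAE and the 5 labelled OVA at 40 days. Of the 21073 genes in the table, the 8598 with a mean above 3 RPKM in either group were tested, RPKM being reads scaled by exon length and library size. All mice were female wild-type SJL mice. OVA mice received ovalbumin in complete Freund's adjuvant (CFA), and EAE mice received the myelin peptide [Ser140]-PLP139-151 in the same adjuvant, without pertussis toxin. Both groups therefore received CFA. They differed in the antigen, in its amount per the methods, and in the disease that EAE mice had gone through, and these cannot be told apart here. Unimmunized mice of day 40 (n = 5) gave the level without adjuvant, and 5 EAE and 5 OVA mice of day 14, at the peak of disease, were different animals. Whole muscle was homogenized, so fewer cells of a type and less RNA per cell cannot be told apart.

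EDL is a fast hindlimb muscle of glycolytic fibres that hold myosin heavy chains of the fast type, with blood vessels, resident macrophages and fibroblasts between them. Experimental autoimmune encephalomyelitis (EAE) is driven by T cells that recognise myelin, and its relapsing-remitting course in SJL mice is used as a model of multiple sclerosis. Interferon-gamma from T and NK cells acts on promoters with a gamma-activated site (GAS), type I interferons act through factors that include STAT2 and IRF9 on an interferon-stimulated response element (ISRE), and both raise guanylate-binding proteins (GBP), immunity-related GTPases (IRG) and antigen presentation. A muscle that loses its nerve input or is immobilised raises acetylcholine receptor subunits and the ubiquitin ligases of atrophy.

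The interferon-gamma-inducible GTPases had the lowest median of the 53 gene lists examined in EAE relative to OVA, and Stat2 was among the genes called, so the bases before their starts are shown. The 250 bases upstream of the start of Igtp (chr11:58199306-58199555), Irgm2 (chr11:58214727-58214976), Gbp7 (chr3:142530086-142530335) and Stat2 (chr10:128270248-128270497), all on the plus strand, were taken from RefSeq on GRCm38.p6, the assembly of mm10. Igtp and Irgm2 encode IRG proteins of chromosome 11 and Gbp7 a GBP of chromosome 3. Capitals mark matches, on either strand, to the GAS motif TTCNNNGAA and to an ISRE-like motif, GAAA followed by any 2 bases and GAAA again, which can overlap.
Igtp: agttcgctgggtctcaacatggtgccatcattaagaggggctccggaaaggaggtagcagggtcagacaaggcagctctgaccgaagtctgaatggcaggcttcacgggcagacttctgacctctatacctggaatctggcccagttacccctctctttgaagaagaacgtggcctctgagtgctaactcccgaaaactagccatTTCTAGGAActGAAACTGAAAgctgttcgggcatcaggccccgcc
Irgm2: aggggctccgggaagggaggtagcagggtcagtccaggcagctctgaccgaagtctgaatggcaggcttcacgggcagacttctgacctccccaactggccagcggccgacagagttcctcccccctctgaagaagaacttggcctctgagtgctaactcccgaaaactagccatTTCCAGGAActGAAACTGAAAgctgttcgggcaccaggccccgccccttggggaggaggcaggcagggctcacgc
Gbp7: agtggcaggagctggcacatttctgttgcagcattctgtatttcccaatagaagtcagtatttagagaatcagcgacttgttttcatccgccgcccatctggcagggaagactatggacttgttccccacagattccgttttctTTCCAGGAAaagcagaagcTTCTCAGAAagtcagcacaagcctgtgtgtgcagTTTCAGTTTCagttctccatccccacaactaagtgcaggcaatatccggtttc
Stat2: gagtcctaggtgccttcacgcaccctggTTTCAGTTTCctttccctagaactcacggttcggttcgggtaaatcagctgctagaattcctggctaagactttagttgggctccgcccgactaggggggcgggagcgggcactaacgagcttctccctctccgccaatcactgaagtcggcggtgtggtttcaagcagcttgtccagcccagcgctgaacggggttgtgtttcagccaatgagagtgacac
In Igtp the GAS match began 45 bases and the ISRE-like match 34 bases before the start, and in Irgm2 they began 75 and 64 bases before it, in the same order and spacing. The sequences of Igtp and Irgm2 are nearly the same around these matches, so they are not independent. Gbp7 held 2 GAS matches and 1 ISRE-like match, and Stat2 held 1 ISRE-like match and no GAS match in this window. Of the 14 listed GTPase genes, 10 had a promoter entry, of which 6 held a GAS match, 9 an ISRE-like match and 6 both. A gene was counted if any of its entries matched, and Gbp3 had 2 entries, of which 1 held no match. The shares that follow count single promoters and not genes. Over all 32851 promoters of this length, 7.02% held a GAS match, 2.98% an ISRE-like match and 0.332% both. A match is a description of these letters and not a site.

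The reads behind the values were estimated at 19.2M to 24.6M per mouse for the 10 mice. Libraries of EAE replicates 1 and 3 stood apart. The slope of a mouse's log2 values, relative to the mean, on log2 exon length was -0.14 and -0.129 in these mice, -0.024 to 0.015 in the other 3 EAE mice and -0.019 to 0.044 in the OVA mice, while the unimmunized mice ranged from -0.08 to 0.195. In these EAE mice short transcripts were thus relatively high and long transcripts relatively low, and for several lists below values without both mice or with the length trend removed are also given. Markers of fast fibres summed to 86900 to 106600 RPKM in EAE and 85030 to 93140 in OVA mice. Skin markers summed to 1.35 to 2.78 RPKM over the 10 mice, with 4 of 8 (Krt5, Krt1, Krt15 and Dsg1a) at 0 in all of them. T and NK cell markers summed to 4.22 to 8.78 RPKM in EAE and 4.96 to 10.1 in OVA mice, and none of them reached the level for testing.

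Few genes differed between EAE and OVA on day 40. At an adjusted p below 0.05 and a fold above 1.5, 15 genes were lower in EAE (0.174% of those tested) and 3 were higher (0.0349%). Several of the lower genes passed the level for testing only through the OVA mice. In the lower group were Stat2, which transmits type I interferon signals, Uba7, the activating enzyme for the ubiquitin-like protein Isg15, Flt3l, the ligand that dendritic cells need for their development, and Aqp7, a channel for water and glycerol. The higher group was Hes1, a repressor induced by Notch, Bhlhe41, a repressor of the circadian clock, and Mcts2. Folds ran from 1.52 to 1.76 in the lower and from 1.52 to 1.55 in the higher genes. Of the 18 called genes, 16 had groups that did not overlap, with Stat2 and Tfap4 as the exceptions, while over all genes tested 4.9% lay without overlap lower in EAE and 0.977% higher. The calls depended on single mice and on scaling: leaving out OVA replicate 3, 4 or 5 or EAE replicate 2, 3, 4 or 5 left 0 higher and 2 or 3 lower genes, leaving out OVA replicate 1 or 2 gave 1 higher and 21 or 19 lower, and EAE replicate 1 gave 3 and 15. Aqp7 and Fam193b alone were called in all 10 of those fits. Without EAE replicates 1 and 3, 1 gene was higher and 8 were lower, of which 6 in all were among the 18.

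Aqp7 (chr4:41033074-41048237) was at 6.29, 7.75, 6.31, 7.79 and 7.80 RPKM in the OVA mice and at 5.25, 4.03, 4.26, 3.84 and 3.20 RPKM in the EAE mice. Every EAE mouse was below every OVA mouse. The log2 difference was -0.80 ± 0.114 (SE, n = 5 per group, limma adjusted p = 0.00891), a level 1.74-fold lower. Unimmunized mice were at 5.19 ± 0.413 RPKM (SD, n = 5), with a mean between those of the groups and 3 mice below EAE replicate 1. The log2 difference of OVA from unimmunized mice was 0.46 (adjusted p = 0.999) and that of EAE from them was -0.34 (adjusted p = 0.0878), so neither passed, and a difference of -0.37 on day 14 did not pass either (adjusted p = 0.0856).

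Fam193b (chr13:55539316-55571120) was at 8.37, 6.84, 9.28, 9.52 and 9.83 RPKM in OVA and at 5.99, 5.30, 5.28, 5.30 and 5.21 RPKM in EAE mice. The EAE values lay close together and below all OVA values. Its log2 difference was -0.68 ± 0.103 (SE, n = 5 per group, limma adjusted p = 0.00891). In contrast to Aqp7, unimmunized mice (8.70 RPKM) were near the OVA mice, and EAE was lower than unimmunized too, by -0.67 (adjusted p = 0.0175).

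Stat2 (chr10:128270498-128292853), whose promoter is shown above, was at 4.36, 5.73, 8.19, 5.59 and 7.14 RPKM in OVA and at 3.48, 3.51, 4.17, 4.40 and 3.10 RPKM in EAE mice. The groups touched at EAE replicate 4 and OVA replicate 1. The log2 difference was -0.70 ± 0.151 (SE, adjusted p = 0.0464). Uba7 (chr9:107975567-107984056) was at 5.24, 6.47, 7.95, 4.76 and 6.03 RPKM in OVA and at 4.31, 3.49, 3.81, 3.52 and 2.16 RPKM in EAE mice, without overlap, and its log2 difference was -0.81 ± 0.17 (SE, adjusted p = 0.0464). In both genes OVA replicate 3 was the highest mouse. Against unimmunized mice the log2 difference of EAE was -0.42 for Stat2 (adjusted p = 0.107) and -0.54 for Uba7 (adjusted p = 0.0781), and neither passed.

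Flt3l (chr7:45131183-45136490) was at 7.12, 6.61, 8.32, 8.48 and 10.2 RPKM in OVA and at 6.45, 3.91, 5.28, 5.21 and 4.63 RPKM in EAE mice. EAE replicate 1 came near the lowest OVA mouse without reaching it. The log2 difference was -0.67 (adjusted p = 0.0392), and EAE was lower than unimmunized mice by -0.60 (adjusted p = 0.0276). Leng8 (chr7:4137013-4148177), the most abundant gene called lower, was at 19.3, 16.2, 22.0, 25.0 and 26.7 RPKM in OVA and at 14.5, 12.7, 12.1, 13.6 and 13.2 RPKM in EAE mice, with a log2 difference of -0.70 (adjusted p = 0.0464).

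Among genes called lower, only Leng8 had a mean above 10 RPKM in OVA mice. Another 9 genes were called lower. They were Vsig2, a member of the immunoglobulin superfamily (log2 difference -0.82), Amt, the aminomethyltransferase of glycine cleavage (-0.74), Cep78, a centrosomal protein (-0.74), Cyp4f13, a cytochrome P450 (-0.73), Tfap4, a basic helix-loop-helix transcription factor (-0.68), Xpo6, the exportin that carries actin from the nucleus (-0.65), Spata1 (-0.63), Slc12a9, of the cation-chloride cotransporter family (-0.61), and Lime1, an adaptor that binds Lck (-0.60). Vsig2, Amt, Cep78, Cyp4f13, Tfap4, Spata1 and Slc12a9 had means under 3 RPKM in EAE mice. They entered the test only through the OVA mice, the group where they were high, which bears on the count of lower genes. Of the 15 genes called lower, 15 were below the unimmunized mice, by -0.34 to -0.91 on the log2 scale, and 11 passed at an adjusted p below 0.05 there. The same EAE mice enter both comparisons. OVA mice differed from unimmunized mice in these 15 genes by -0.09 to 0.46, and over all 8706 genes tested between OVA and unimmunized mice 0 were called (0%), with 272 at an unadjusted p below 0.05 and a smallest adjusted p of 0.76. Between EAE and unimmunized mice 34 of 8691 genes were called lower (0.391%) and 6 higher (0.069%).

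Among the higher genes, Hes1 (chr16:30065357-30067796) was at 13.7, 11.2, 12.5, 12.4 and 13.9 RPKM in OVA and at 18.7, 21.9, 18.7, 23.4 and 16.5 RPKM in EAE mice. All EAE mice were above all OVA mice. The log2 difference was 0.63 ± 0.124 (SE, n = 5 per group, limma adjusted p = 0.0421). Unimmunized mice were at 13.1 RPKM, near the OVA mice, and on day 14 Hes1 was also higher in EAE, by 0.93 (adjusted p = 0.0242).

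Bhlhe41 (chr6:145858243-145865420) was at 10.4, 7.81, 10.2, 10.5 and 8.41 RPKM in OVA and at 12.1, 15.7, 11.2, 17.8 and 15.8 RPKM in EAE mice. The groups did not overlap, with EAE replicates 1 and 3 nearest to the OVA mice. The log2 difference was 0.60 ± 0.13 (SE, adjusted p = 0.0464). Of 16 clock genes tested it was the only one called. Ciart (0.93, adjusted p = 0.132) and Cry2 (0.29, adjusted p = 0.194) came next. Mcts2 was at 5.89 to 7.83 RPKM in OVA and 9.90 to 12.0 RPKM in EAE mice (log2 difference 0.61, adjusted p = 0.0392), but it is a near copy of Mcts1, so how its reads were assigned is uncertain.

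**Figure D1:**
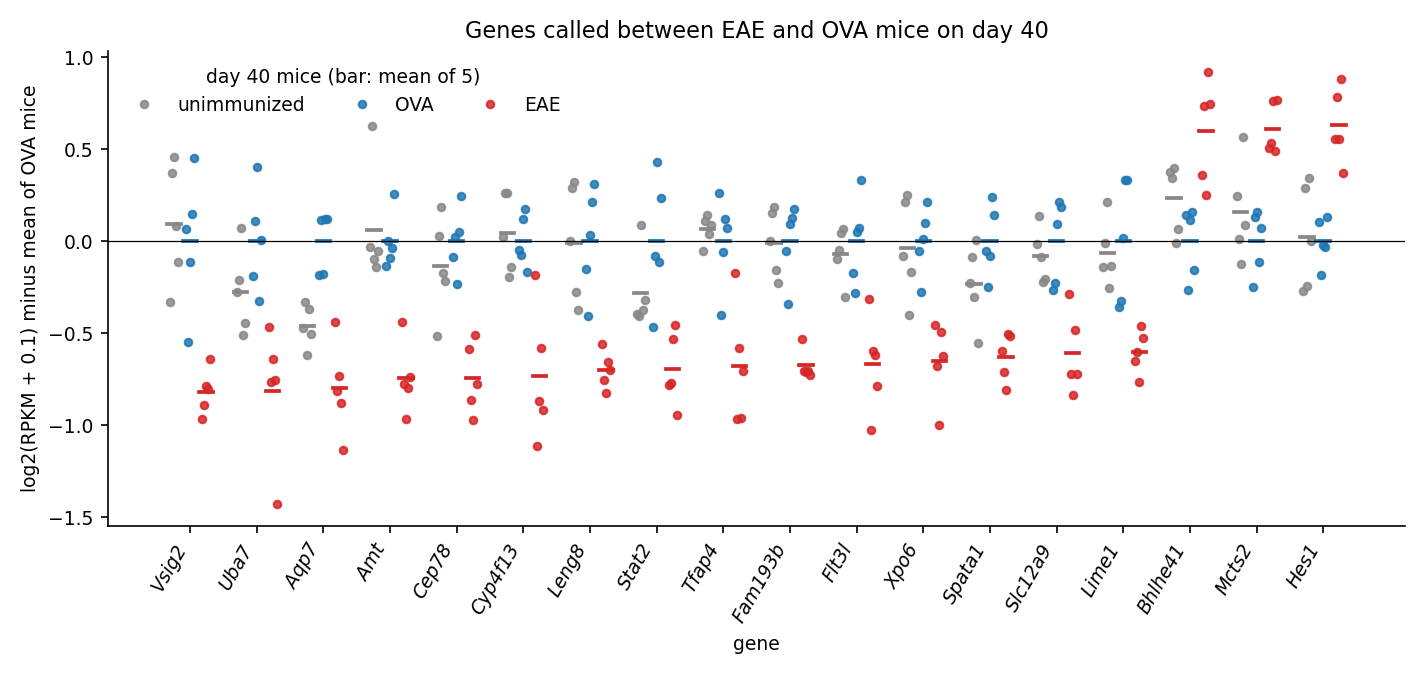
Level of the 18 called genes (x axis) in each mouse on day 40, as log2(RPKM + 0.1) minus the mean of the OVA mice (y axis), with a point per mouse and a bar at the mean of 5 unimmunized, OVA or EAE mice. Aqp7 separated EAE from OVA mice with the unimmunized mean between them, whereas in Fam193b the unimmunized mice lay with the OVA mice.

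The remaining genes chosen by rule did not reach the call. Smim4, a small membrane protein, rose by 0.48 (adjusted p = 0.0464) and Nudt7, a peroxisomal hydrolase of coenzyme A, rose by 0.43 (adjusted p = 0.0464), each under the fold of 1.5. Nudt7 was at 16.5 to 19.5 RPKM in OVA and 22.9 to 28.0 RPKM in EAE mice, without overlap. Junb, a subunit of the AP-1 transcription factor, was at 12.8, 14.9, 16.7, 17.2 and 23.5 RPKM in OVA and at 25.2, 23.1, 39.6, 45.7 and 24.4 RPKM in EAE mice, a log2 difference of 0.86 with an adjusted p of 0.0602. Pla2g12a, a phospholipase A2 (0.56), Twistnb, a subunit of RNA polymerase I (0.31), Myl6b, a myosin light chain (0.37), and Fam204a (0.20) completed these.

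Without the fold threshold, 50 genes were lower (0.582%) and 5 higher (0.0582%) at an adjusted p below 0.05. The examples in the rest of this paragraph were chosen after their values were seen. Trim25, a ubiquitin ligase that acts on the RNA sensor RIG-I, had the smallest p of all genes. It was at 5.42, 6.31, 6.20, 6.62 and 6.20 RPKM in OVA and at 4.18, 3.89, 4.12, 4.27 and 4.60 RPKM in EAE mice, a log2 difference of -0.54 ± 0.07 (SE, adjusted p = 0.00683). Ogt, the transferase of O-linked N-acetylglucosamine, was 31.9 to 37.2 RPKM in OVA and 23.3 to 27.2 RPKM in EAE mice (-0.50, adjusted p = 0.00891). Nxf1, the export receptor for mRNA, fell by 0.45 on the log2 scale, and Ddx17, an RNA helicase, fell by 0.54. Stat6, which transmits interleukin-4 signals, fell by 0.37 on the log2 scale, and Eng, an endothelial co-receptor for TGF-beta, fell by 0.50. Xdh, the xanthine dehydrogenase of purine breakdown, fell by 0.58 (adjusted p = 0.0356).

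Over all 8598 genes, the median log2 difference was -0.042 and 60.99% of genes were below 0. At an unadjusted p below 0.05, 1180 genes were lower (13.7%) and 320 higher (3.72%), so higher genes were 21.3% of these. This share moved to 63.5% with median-of-ratios scaling (987 higher and 567 lower), to 53.1% with the length trend removed (724 and 639) and to 47.1% with quantile normalization (542 and 608), while it was 12.9% without EAE replicates 1 and 3. The balance of higher and lower genes is therefore not established by these values, and lists are read below against the median of all genes, which was -0.042 here, 0.029 with median-of-ratios scaling, 0.002 with quantile normalization and 0.012 with the length trend removed.

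The interferon-gamma-inducible GTPases, which attack the vacuoles of intracellular microbes, lay below the OVA mice as a list, although no single gene passed. Of 14 genes 13 were tested, as Gbp6 was under 3 RPKM. All 13 were below 0 and all 13 had an unadjusted p below 0.05, against the background of 13.7%, and 0 had an adjusted p below 0.05 by limma, the smallest being 0.092 for Irgm1. The median log2 difference was -0.87, beside -0.042 over all genes. The largest were Gbp4 (-1.23), Iigp1 (-1.17) and Tgtp1 (-1.12), followed by Igtp (-0.97), Irgm2 (-0.97), Gbp9 (-0.89), Tgtp2 (-0.87), Gbp5 (-0.79), Gbp7 (-0.79), Irgm1 (-0.68), Ifi47 (-0.67), Gbp2 (-0.60) and Gbp3 (-0.58). Several of these are near-identical neighbours that can share reads (Tgtp1 and Tgtp2, and the Gbp genes), so they are not independent measurements.

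Igtp was at 19.0, 23.8, 68.5, 20.0 and 31.7 RPKM in OVA and at 13.5, 12.5, 17.8, 23.3 and 9.35 RPKM in EAE mice. Irgm2 was at 12.1, 13.7, 38.9, 13.8 and 20.4 RPKM in OVA and at 7.24, 8.30, 12.5, 12.9 and 6.31 RPKM in EAE mice. Gbp7 was at 7.64, 8.89, 15.2, 7.62 and 8.14 RPKM in OVA and at 4.92, 5.22, 4.16, 7.52 and 5.06 RPKM in EAE mice. OVA replicate 3 was the highest and EAE replicate 4 the highest of its group in each of these genes, as in all 13.

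In EAE replicates 1, 2 and 5 all 13 genes were below the lowest OVA mouse, in replicate 3 there were 11 and in replicate 4 there were 2. The share of all tested genes beyond the OVA mice in each EAE mouse was not computed, here or for the lists below. The mean log2 level over the 13 genes was 3.14, 3.46, 4.43, 3.14 and 3.57 in the OVA mice, 2.59, 2.61, 2.48, 3.34 and 2.37 in the EAE mice and 3.03 ± 0.604 (SD, n = 5) in the unimmunized mice. The mean of the unimmunized mice lay between the groups, while single unimmunized mice, at 2.10 to 3.59, covered the range of both. The OVA mean was above and the EAE mean below the unimmunized mean in 13 of 13 genes, with medians of 0.58 and -0.35, and no gene was called in the first of these comparisons. Without OVA replicate 3 the list had a median of -0.66 with 7 genes at an unadjusted p below 0.05, and without EAE replicates 1 and 3 it was -0.70 with 8. With the length trend removed it was -0.80 with 13, and with all 30 mice in 1 model 5 of 13 genes had such a p.

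**Figure D2:**
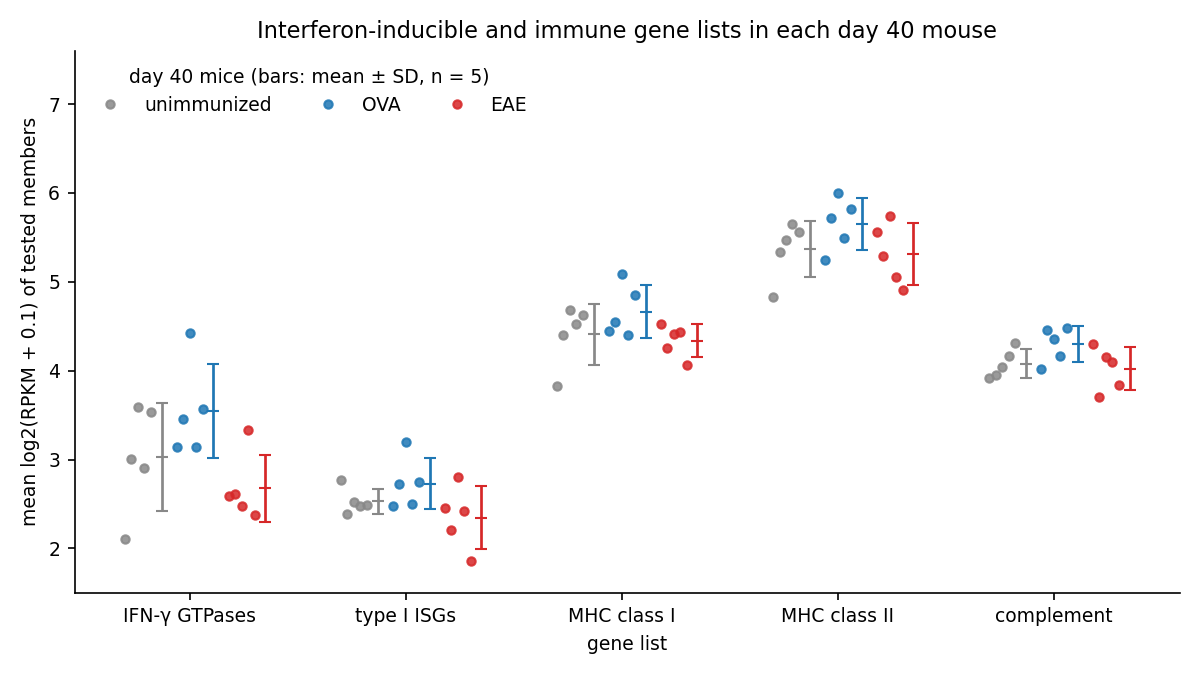
Mean log2(RPKM + 0.1) over the tested genes of 5 immune lists (y axis) in each mouse on day 40, with a point per mouse and bars for the mean ± SD of 5 unimmunized, OVA or EAE mice. For the interferon-gamma-inducible GTPases, OVA replicate 3 was highest at 4.43 and EAE replicate 4, at 3.34, was the EAE mouse that reached the OVA mice.

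Genes that respond to type I interferons had a median below 0 as well, and the EAE mice differed among themselves. Of 40 listed genes 25 reached the level for testing, which a high mean in 1 group suffices for. Of these 25, 24 were below 0 and 12 had an unadjusted p below 0.05, with a median of -0.39. With no filter on low values, 38 of 40 were below 0 and 17 had such a p, beside 1965 of all 17294 genes. Stat2 was called, and Oas2, a sensor of double-stranded RNA (-0.96, adjusted p = 0.0645), and Parp9 (-0.48, adjusted p = 0.0779) followed. Isg15 itself, the protein that Uba7 activates, had a log2 difference of 0.06 with 3.51 to 10.4 RPKM in OVA and 3.04 to 11.5 RPKM in EAE mice, so the groups overlapped throughout. EAE replicates 2 and 5 had 25 of 25 genes below the median of the OVA mice, while EAE replicate 3 had 10 of 25 below it and 6 above the highest OVA mouse. The mean log2 level of the list was 1.85 to 2.81 in EAE and 2.48 to 3.19 in OVA mice, so the groups overlapped. Without EAE replicate 5 the median was -0.16 with 9 genes at such a p, without OVA replicate 3 it was -0.27 with 7, with quantile normalization -0.23 with 8, and without EAE replicates 1 and 3 it was -0.53 with 18.

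In antigen presentation, all 17 tested genes of MHC class I and antigen processing were below 0, with a median of -0.32 and 3 at an unadjusted p below 0.05 (Tapbp -0.27, Tap1 -0.60 and Tap2 -0.32), of which the TAP genes encode the peptide transporter and Tapbp its bridge to class I. Over all genes 13.7% had such a p in this direction, and for class I the count was 1 without OVA replicate 3 or without EAE replicate 5 and 8 with the 10 mice alone. All 6 MHC class II genes were below 0, with a median of -0.35 and 2 at such a p (H2-Aa -0.48 and H2-Eb1 -0.46). H2-Aa was at 82.3, 108, 120, 88.1 and 108 RPKM in OVA and at 87.0, 80.6, 87.5, 58.8 and 52.6 RPKM in EAE mice, and the groups overlapped. None of these genes passed the adjusted test. The class II median was -0.60 with 5 genes at an unadjusted p below 0.05 without EAE replicates 1 and 3, -0.24 with 1 without EAE replicate 5, and 0 genes had such a p by limma with all 30 mice in 1 model.

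Of 15 complement genes 14 were below 0, with a median of -0.25 and 6 at an unadjusted p below 0.05, and none passed the adjusted test. C1s1, a protease of the classical pathway (-0.37, adjusted p = 0.0653), C4b (-0.68, adjusted p = 0.127), and C3, the central component (-0.70, adjusted p = 0.16), had the smallest p. C3 was at 14.7, 36.7, 26.3, 21.8 and 26.8 RPKM in OVA and at 15.5, 10.7, 17.3, 19.6 and 12.5 RPKM in EAE mice. OVA replicate 1 lay among the EAE mice. Without EAE replicates 1 and 3 the median of the list was -0.39 with 10 genes at such a p, and with all 30 mice in 1 model 2 genes had one.

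Markers of macrophages and vessels were mostly below 0 beside these lists. Of 11 macrophage markers tested 9 were below 0, with a median of -0.24, and 5 had an unadjusted p below 0.05. Csf1r, the receptor for macrophage colony-stimulating factor, fell by 0.40 on the log2 scale (adjusted p = 0.0464), from 14.3, 16.4, 16.3, 16.3 and 19.6 RPKM in OVA to 14.0, 12.7, 12.7, 11.1 and 11.8 RPKM in EAE mice. The 12 macrophage markers summed to 280 to 352 RPKM in EAE and to 319 to 403 RPKM in OVA mice. Of 12 endothelial markers 11 were below 0, with a median of -0.30 and 7 at an unadjusted p below 0.05, led by the VEGF receptors Flt1 (-0.48, adjusted p = 0.0602) and Kdr (-0.42, adjusted p = 0.0871). Their sum was 173 to 215 RPKM in EAE and 198 to 250 RPKM in OVA mice, and with the length trend removed the median was -0.20. Without EAE replicates 1 and 3 the medians were -0.35 for macrophages and -0.31 for endothelium. Whether these cells have a part in the interferon, MHC or complement values was not tested.

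In the extracellular matrix, 14 of 17 fibrillar collagen genes were below 0, with a median of -0.19 and none at an unadjusted p below 0.05, and with the length trend removed the median was -0.06. Col1a1, the main chain of type I collagen, ranged from 98.7 to 300 RPKM in EAE and from 127 to 257 RPKM in OVA mice. Of 27 matrix processing genes, P4ha1, a prolyl hydroxylase of collagen, fell by 0.30 on the log2 scale (adjusted p = 0.0478), from 21.9 to 26.5 RPKM in OVA mice to 18.6 to 20.2 RPKM in EAE mice.

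Genes of oxidative phosphorylation, which make the respiratory chain of the mitochondria, had small positive differences, largest in the 2 EAE mice with the length slope. Of 36 complex I genes 35 were above 0, with a median of 0.20 and 9 at an unadjusted p below 0.05, and none passed the adjusted test. Of 39 genes of complexes II to V, 39 were above 0, with a median of 0.18 and 8 at such a p, where the share over all genes was 3.72% in this direction. The mean log2 level of complex I was 7.34, 7.32, 7.31, 7.25 and 7.34 in the OVA mice and 7.72, 7.40, 7.68, 7.34 and 7.35 in the EAE mice. Replicates 1 and 3, the mice with the length slope, each had 35 of 36 genes above the highest OVA mouse, while replicates 2, 4 and 5 had 19, 11 and 7. Without these 2 mice the median was 0.06 with 0 genes at an unadjusted p below 0.05 by limma, and with the length trend removed it was 0.14 with 15. The count for complex I was also 0 when OVA replicate 4, EAE replicate 1 or EAE replicate 3 alone was left out and with all 30 mice in 1 model, and it was 24 with median-of-ratios scaling. For complexes II to V the median without EAE replicates 1 and 3 was 0.06 with 0 genes at such a p by limma, and the count was 0 with all 30 mice, 2 without OVA replicate 4 or EAE replicate 3, 3 with quantile normalization (median 0.07) or without EAE replicate 1, and 22 with median-of-ratios scaling. With the length trend removed, the median of complexes II to V was 0.13 with 12 genes at such a p.

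Ndufa4, a small subunit of the respiratory chain, was at 963, 889, 813, 794 and 887 RPKM in OVA and at 1093, 969, 1128, 916 and 921 RPKM in EAE mice (log2 difference 0.21, adjusted p = 0.285). Mitochondrial ribosomal proteins (67 of 72 above 0, median 0.12) and cytosolic ribosomal proteins (51 of 62, median 0.15) also had positive medians, and without replicates 1 and 3 their medians were 0.02 and 0.04. With the length trend removed the medians of these 2 lists were 0.11 and 0.08. Higher genes at an unadjusted p below 0.05 then numbered 19 and 5, beside 11 and 2 in the main fit. Over 8542 genes with an exon length, the log2 difference and the length had a Spearman correlation of -0.436, given as a description because the genes share these 10 libraries. In 5 groups of genes of equal size, from the shortest to the longest, the median difference was 0.074, -0.004, -0.047, -0.088 and -0.13.

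**Figure D3:**
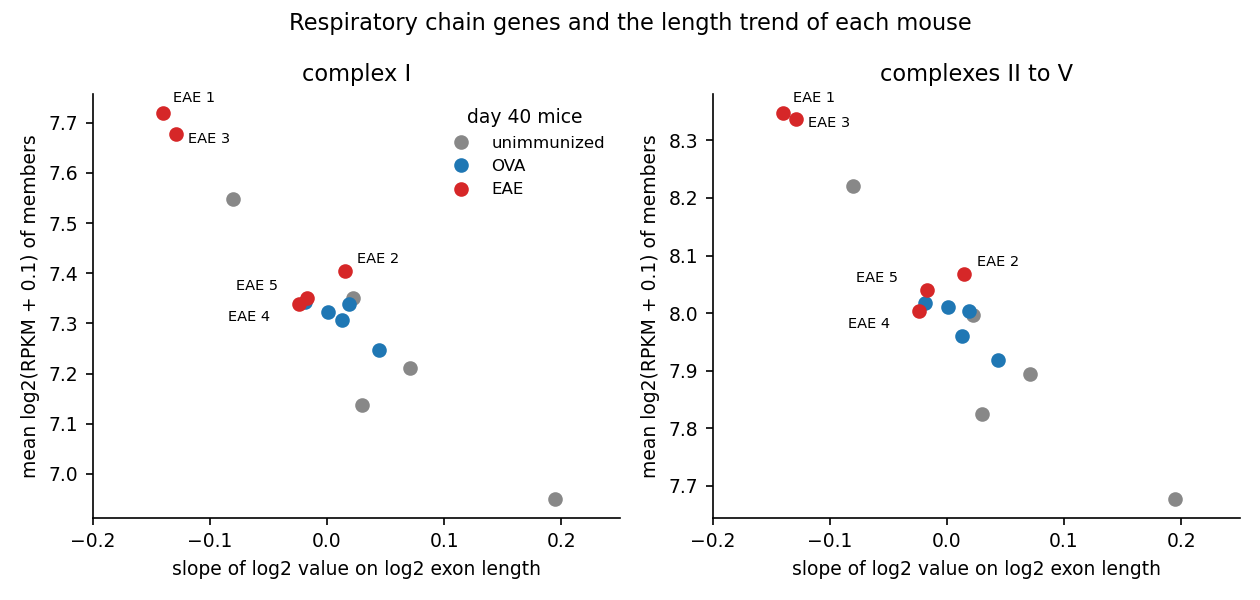
Mean log2(RPKM + 0.1) of complex I (left) and complexes II to V (right) against the slope of log2 values on log2 exon length (x axis), a point per mouse of day 40 coloured by group. EAE replicates 1 and 3, with slopes of -0.14 and -0.129, had the highest complex I levels of the EAE mice, and the other 3 EAE mice lay at 7.34 to 7.40, near the OVA mice.

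Immediate early genes, which cells switch on within minutes of a stimulus, lay above the OVA mice in part of the EAE mice. Of 24 tested 22 were above 0, with a median of 0.32 and 9 at an unadjusted p below 0.05, against a background of 3.72%, and none passed the adjusted test. Junb came first, then Atf3, a stress-induced transcription factor (1.04, adjusted p = 0.132), and the nuclear receptor Nr4a2 (1.54, adjusted p = 0.143). Atf3 was at 4.81, 7.01, 7.44, 7.01 and 7.25 RPKM in OVA and at 7.66, 8.74, 9.40, 32.0 and 24.1 RPKM in EAE mice. Nr4a2 was at 0.783 to 1.45 RPKM in OVA and at 1.04, 1.58, 2.59, 17.0 and 4.33 RPKM in EAE mice. EAE replicate 4 had 19 and replicate 5 had 14 of the 24 genes above the highest OVA mouse, and without replicate 4 the median was 0.18 with 4 genes at such a p.

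Genes that respond to stretch of the fibre had a median of 0.14, with 10 of 14 above 0, which was 0.03 with 8 of 14 above 0 without OVA replicate 1 and 0.08 without EAE replicate 5. Csrp3, a protein of the Z-disc, was at 46.4, 104, 62.6, 86.5 and 65.6 RPKM in OVA and at 123, 88.7, 118, 209 and 308 RPKM in EAE mice (log2 difference 1.12, adjusted p = 0.164). EAE replicates 4 and 5 were again the highest. Targets of TNF and NF-kB had a median of 0.05 with 15 of 25 above 0, and it was -0.02 without EAE replicates 1 and 3.

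Among genes of muscle differentiation and denervation, none passed the test on day 40. Genes of muscle differentiation had a median of -0.02, with 11 of 24 above and 13 below 0, and its sign changed with median-of-ratios scaling and quantile normalization. Myog, a regulator of myoblast fusion that denervation induces, was at 10.9, 11.4, 12.9, 10.1 and 11.2 RPKM in OVA and at 7.61, 7.38, 14.2, 17.3 and 14.7 RPKM in EAE mice, with the EAE mice on both sides of the OVA mice (0.04, adjusted p = 0.949). Of 16 denervation and neuromuscular junction genes 12 were below 0, with a median of -0.07, and the acetylcholine receptor subunit Chrna1 was at 5.83 to 6.89 RPKM in OVA and 5.40 to 6.51 RPKM in EAE mice (-0.16, adjusted p = 0.418). Fbxo32, the atrophy ubiquitin ligase atrogin-1, was at 46.8 to 69.6 RPKM in OVA and 36.1 to 56.3 RPKM in EAE mice (-0.23, adjusted p = 0.393), with unimmunized mice at 74.9 ± 11.3 RPKM (SD, n = 5), from which EAE differed by -0.61 (adjusted p = 0.0312) and OVA by -0.39. Of 22 atrophy and FoxO targets, Asb2, a subunit of a ubiquitin ligase of muscle, fell by 0.31 on the log2 scale (adjusted p = 0.0464), from 161 to 202 RPKM in OVA mice to 131 to 161 RPKM in EAE mice. Among 21 chaperones Hsph1 fell by 0.50 (adjusted p = 0.0369), from 22.9, 32.3, 26.1, 31.5 and 30.7 RPKM in OVA to 18.6, 19.5, 20.8, 21.1 and 21.0 RPKM in EAE mice.

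The difference between EAE and OVA on day 40 was set against that of day 14, in other mice. At the peak, 957 of 8674 genes passed as higher in EAE (11%) and 805 as lower (9.28%). The change of the difference from day 14 to day 40, tested as an interaction, was called for 1951 of 8935 genes, with 729 toward higher (8.16%) and 1222 toward lower (13.7%) on day 40. Over 8337 genes tested on both days, the differences of the days had a Pearson correlation of -0.003 and a Spearman correlation of -0.061, given as a description.

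The 16 denervation genes tested on both days had a median log2 difference of 0.49 on day 14 and -0.07 on day 40. Another 7 were tested on day 14 and not on day 40, where both groups were under 3 RPKM, and with them the day 14 median was 2.09. Chrna1 changed by -3.08, from 2.92 on day 14 (adjusted p of the change 1.44e-09), and Myog by -3.94, from 3.98 on day 14. Complex I genes had a median of -0.73 on day 14 and 0.20 on day 40, with 31 of 36 called toward higher. Complexes II to V moved from -0.77 to 0.18, with 34 of 39 called. Over all genes 8.16% were called in this direction. Without EAE replicates 1 and 3 of day 40 both day 40 medians were 0.06, and with the length trend removed they were 0.14 and 0.13. No length slope is given for the mice of day 14. Fibrillar collagens moved from -0.99 to -0.19, with 13 of 17 called toward higher, and Col1a1 changed by 2.67. Hsph1 was higher in EAE on day 14 by 1.08 and lower on day 40, a change of -1.58 (adjusted p = 3.53e-08).

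The immune lists were below 0 on both days. The 10 GTPases tested on both days had a median of -1.17 on day 14 and -0.83 on day 40, and 0 of 13 changes were called, with 3 (Gbp2, Gbp3 and Ifi47) called lower on day 14. MHC class II genes had -1.39 on day 14, where 6 of 6 were called lower, and -0.35 on day 40, and 4 of 6 changes were called. The 10 type I interferon genes tested on both days had -0.77 on day 14 and -0.30 on day 40, with 1 of 25 changes called. Over all genes 9.28% were called lower on day 14, and 8.16% had a change called toward higher. A change that was not called does not show that the days were alike.

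Among the largest falls in the change between days were those of Gdf5, a bone morphogenetic protein (-5.80), Ces2c, a carboxylesterase (-5.16), and the T cell receptor delta genes Trdj1 (-4.98) and Trdc (-4.92). All were below 1 RPKM in both groups on day 40. The 5 largest rises were in the globins Hba-a1 (3.95), Hbb-b1 (3.91), Hbb-bs (3.86) and Hba-a2 (3.61) and in Alas2, the first enzyme of haem synthesis in erythroid cells (3.30). Arithmetic mean RPKM of these 5 genes was lower in EAE than in OVA mice on both days. For Hba-a1 it was 48.2 in EAE and 551 in OVA mice on day 14, and 323 and 378 on day 40. The day 40 means did not carry over to the log2 scale. There, 4 of 5 erythrocyte markers tested were above 0, with a median of 0.16. The median of summed erythrocyte markers was 448 RPKM in EAE and 443 RPKM in OVA mice on day 40. The globin genes are near copies of each other, and erythrocyte markers ranged from 217 to 979 RPKM in EAE and from 142 to 1850 RPKM in OVA mice on day 40.

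**Figure D4:**
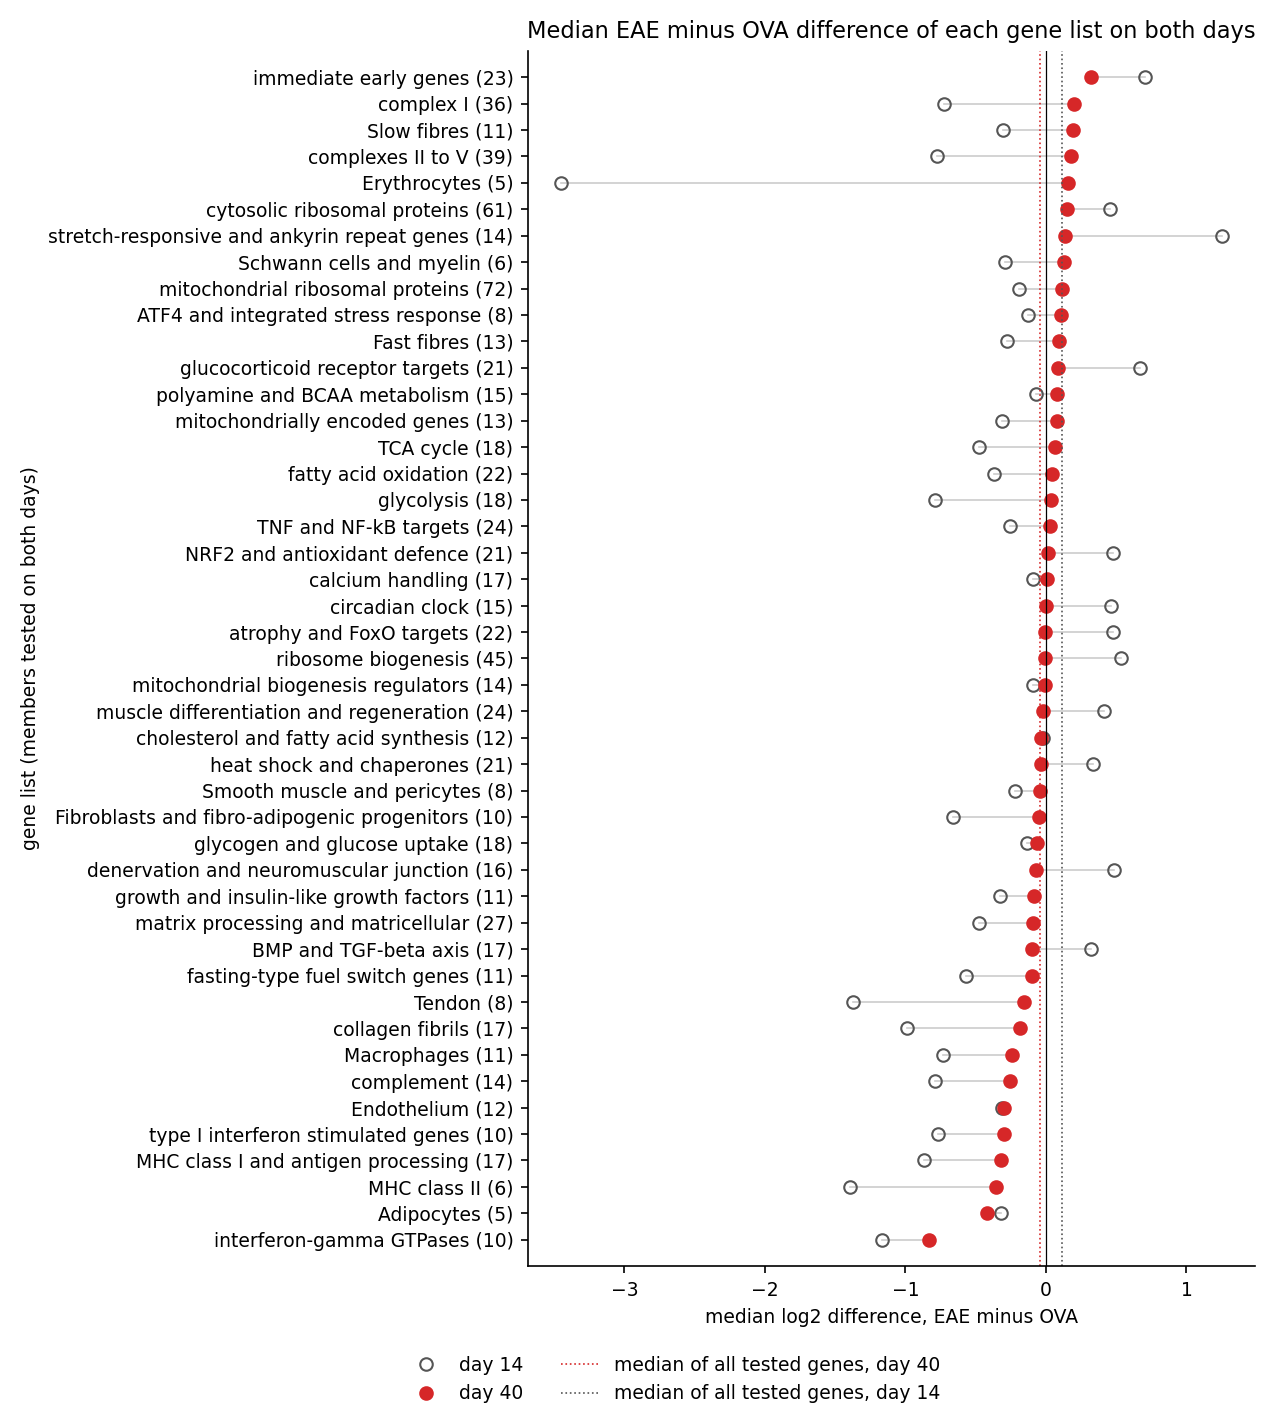
Median log2 difference between EAE and OVA of gene lists (x axis) on day 14 (open circles) and day 40 (filled circles), 1 list a line, over the genes tested on both days with their number, and dotted lines at the medians of all tested genes. The 16 denervation genes were at 0.49 on day 14 and -0.07 on day 40, complex I at -0.73 and 0.20, and the interferon-gamma-inducible GTPases at -1.17 and -0.83.

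In a principal component analysis of the 15 mice of day 40 on the tested genes, the first component (36.48% of variance) was at 9.68 ± 10.06 (SD, n = 5) in EAE and -2.47 ± 3.66 in OVA mice, a difference of 12.16. The exact 2-sided permutation test gave p = 0.0238 (adjusted p = 0.0714 over 3 components), so it did not pass. EAE replicates 1 and 3, with length slopes of -0.14 and -0.129, were at 20.97 and 19.63. The other 3 EAE mice were at -1.70, 4.36 and 5.16. Unimmunized mice ran from -28.18 in replicate 3, with a slope of 0.195, to 11.4 in replicate 4, with a slope of -0.08. Whether this component follows transcript length or the antigen was not tested. For the second component (12.66%) the difference was 10.76, with an adjusted exact permutation p of 0.107.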

How the data were processed

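RNA-Seq values of EDL muscle were taken for the 15 mice of day 40 and, for the change between days, for all 30. Per the labels and methods, the authors made directional poly(A) libraries, used Subread to align paired-end reads to mm10, summed them over RefSeq transcripts by featureCounts, and derived RPKM. The deposited table holds log2(RPKM + 1), with 0.0001 for a gene without a read (25.8% of values). This scale was read from the values: as multiples of 1 read, 92.7% were whole within 0.1 read on the log2 scale, against 53.9% if read as RPKM. Depth was estimated from the same steps. Values were converted back to RPKM. As they are not counts, no count test was used, and the design had assumed RPKM. Genes were named by Entrez identifier (20857 of 21073), with exon lengths from GENCODE for 20057.

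Gene expression was compared with limma 3.58.1 in R 4.3.3 (lmFit, eBayes with a mean-variance trend) after adding 0.1 to RPKM and taking log2, in 1 model of the 15 day 40 mice. A fold change is on this scale and understates that of low genes. Genes with a mean above 3 RPKM in either group were tested and called where the fold exceeded 1.5 and p, adjusted by Benjamini-Hochberg, was under 0.05. Genes without an overlap have every mouse of 1 group beyond every mouse of the other. The change between days was an interaction over 30 mice. Fits were tested on simulated data, drawn independently for each gene and mouse. These held no length trend or other deviation shared by the genes of a mouse, so they do not cover that feature. Named genes were all called genes up to 15 a direction, then those of smallest p to 10, and the list members with the smallest p. Some genes that this rule names are not reported here. The members and the 53 lists were chosen with earlier results of these data known. Alternatives were pseudocounts of 1 and 0.01, filters of 1 RPKM and none, other scalings, the 10 mice alone, all 30 mice, array weights, no trend, components of the 10 mice or the 1000 most variable genes, a replicate block, each mouse left out and, after seeing the data, EAE replicates 1 and 3 left out together. Mice of a group differed by 14.51 to 66.39 times the counting noise, so none was a duplicate of another. The labels number the replicates within a group.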

Additional observations from a re-analysis of the deposited data

Results flagged for a closer look

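Among 88 checks of single mice, 2 flags were raised, where chance flags about 1 in 20 groups. Fam193b in EAE replicate 1 was at 2.61 on the log2 scale, apart from the other EAE mice at 2.41 to 2.43. The mean level of the interferon-gamma-inducible GTPases in EAE replicate 4 was 3.34, apart from the other EAE mice at 2.37 to 2.61.

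The difference between EAE and OVA itself changed between day 14 and day 40, by the interaction test, for 12 of 25 named genes. These genes were chosen for their difference on day 40, which bears on that count, and over all 8935 genes tested 1951 were called. The change on the log2 scale, day 40 minus day 14, was -1.12 for Vsig2, -0.79 for Amt, -0.72 for Cep78, -1.14 for Leng8, -1.15 for Tfap4, -0.83 for Fam193b, -0.85 for Xpo6, -0.65 for Slc12a9 and -0.82 for Myl6b. It was 0.83 for Bhlhe41, 1.28 for Nudt7 and 0.88 for Pla2g12a. On day 14 Vsig2, Amt, Cep78, Tfap4 and Slc12a9 were under 3 RPKM in both groups and were not tested on that day alone. They entered the interaction test only through the OVA mice of day 40.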

How the results depend on the processing

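The number of genes called was small and moved with most settings, and the cause was not tested. Against 3 higher and 15 lower, a pseudocount of 1 gave 1 and 7, no filter 0 and 3, a filter of 1 RPKM 9 lower, all 30 mice in 1 model 0 and 1, median-of-ratios scaling 0 and 2, quantile normalization 0 and 1, the length trend removed 5 lower, no fold threshold 5 and 50, array weights 9 and 34, and leaving out EAE replicates 1 and 3 gave 1 and 8. Leaving out 1 mouse gave 0 to 3 higher and 2 to 21 lower. The calls for the change between days were 1951, 3138 without the fold threshold and 1765 to 1987 with 1 mouse left out. The first component differed by 13.31 when computed on the 10 mice alone (adjusted exact permutation p = 0.0476) and by 9.53 to 15.08 with 1 mouse left out, the latter without EAE replicate 2 (adjusted exact permutation p = 0.0238). How far the length slope enters these differences was not tested.

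The median of the muscle differentiation list, -0.02, was 0.051 with median-of-ratios scaling, 0.021 with quantile normalization, -0.079 to 0.015 with 1 mouse left out, 0.015 without EAE replicate 1, 0.009 without EAE replicate 2, 0.008 without OVA replicate 5 and 0.016 without EAE replicates 1 and 3. That of the TNF and NF-kB targets, 0.047, was -0.024 without EAE replicates 1 and 3.

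With the replicate number as a block, 0 genes were called higher and 0 lower by limma, with 229 and 996 at an unadjusted p below 0.05. Deviations of same-numbered EAE and OVA mice from their group means had correlations of -0.16 to 0.049 over all tested genes. Such whole-profile correlations cannot show whether same-numbered mice shared a step of handling, which the labels do not give. Over genes with at least 50 reads in a pair of mice, mice of a group differed by 14.51 to 66.39 times the counting noise. The ratio was not computed for the called genes, and what limits the tests was not tested.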
